A study of Homo sapiens with 19 samples.

Results

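Cassette exons of 300 nt or more were examined in human mammary epithelial cells before and after an epithelial–mesenchymal transition (EMT), with and without knockdown of the RNA-binding protein AKAP8. The members were all skipped exon (SE) events in the 3 junction count tables whose variable exon spans at least 300 nt. They numbered 3091 of 73389 SE events, or 4.21%, and came from 2375 distinct exons of 2003 genes. Since 526 of these exons appear in 2 or more events that differ only in their neighbouring exons, such events share reads and are not independent. The tests, the shares of events and the correlations nevertheless count each event.

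HMLE/Twist-ER is a line of immortalized mammary epithelial cells in which the EMT factor Twist, joined to the hormone-binding part of the estrogen receptor, is switched on by tamoxifen. Untreated cells stood for the epithelial state (EPI) and cells induced with 20 nM tamoxifen for the mesenchymal state (MES). Both states carried either a non-specific shRNA (control) or an shRNA against AKAP8 (knockdown), so that every group carried Twist-ER and a lentiviral shRNA. There were 3 EPI control, 3 EPI knockdown, 3 MES control and 2 MES knockdown libraries of poly(A) RNA, all from 1 cell line. The study's methods call the libraries of a group biological replicates and the labels do not say more, so that p-values measure the spread between these libraries. The MES knockdown table holds 2 of the 3 MES controls.

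AKAP8 itself had 10.8 to 12.9 RPM, its share of all SE junction reads scaled to a common total, in EPI controls and 3.72 to 5.74 in EPI knockdown cells, or 43.2% of control (exact permutation p = 0.1, two-sided, the smallest that 3 against 3 allows). In MES cells it had 7.5 to 15.9 and 4.0 to 4.6, or 38.1% of control (exact permutation p = 0.2, two-sided, the smallest possible with 3 and 2 libraries). The marker genes followed the labelled states. Of 14 epithelial markers, 7 had an SE event in all 3 tables, CDH1 and ESRP1 among them, and all 7 were higher in every EPI than in every MES library, with summed levels of 666 to 830 against 29.5 to 78.9 RPM. Of 13 mesenchymal markers with such an event, 11 were lower in every EPI library, all but QKI and TNC. The sums were 32300 to 69100 against 122000 to 230000, most of them from FN1 (48100 RPM in EPI and 157000 in MES controls). Of 4 immune and 3 endothelial markers only CD68 had such an event, with 17.8 to 51.0 RPM in EPI and 8.17 to 16.4 in MES libraries, and the others could not be read here. Long exons received between 898253 and 1245871 junction reads per library and table, which was 2.75% to 3.13% of all SE junction reads.

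Most human internal exons are short, because the spliceosome pairs the splice sites on both sides of an exon across it. Exons much longer than that lean more on strong splice sites and on proteins bound within the exon, and many encode a whole repeat array or a large disordered segment in a single piece. Skipping such an exon whose length is a multiple of 3 removes that segment and leaves the rest of the protein in frame.

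The long exons had a median length of 514 nt, with quartiles at 371 and 838 nt, and 458 of them reached 1000 nt. Just inside the limit stood 9 exons of 300 nt, and 10 exons were 1 nt shorter. The longest were those of ANKRD11 (6578 nt), a chromatin regulator, ANK2 (6255 nt), the giant exon of ankyrin-B, and SON (5916 nt), a splicing cofactor. The SON exon was included at 98.8% ± 0.286 (SD, n = 3) in EPI controls and the ANKRD11 exon at 99.1% ± 0.909 (SD, n = 3). Percent spliced in (PSI) is the share of transcripts with the exon, computed from the reads on its inclusion and skipping junctions. The ANK2 exon had only 9.67 reads per library there, under the limit of 20 used for testing.

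The long exons were set beside exons of 28 nt up to that limit (mid-length exons) and beside exons up to 27 nt (microexons). Of the long exons 53.2% were wholly coding, against 84.9% of the mid-length ones. A further 28% were part coding and part untranslated (7.08% of the mid-length exons), and 14.3% lay only in transcripts without a coding sequence (3.57%). In 32.1% an annotated transcript starts inside the exon (12.4%) and in 43.5% one ends inside (18.2%). The junction reads measure an exon only where both its ends are spliced, so transcripts that begin or end within it are not seen in full. Median splice site scores were close to those of mid-length exons, at 9.66 bits for the 3′ splice site (9.35) and 8.35 bits for the 5′ splice site (8.12). A score sums, over the bases of a site, the log2 odds of each base under a weight matrix built from all SE exons. The median GC content was 52.1% (48.3%).

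The splice sites of 7 exons on which the results turn are shown from GRCh37, with exonic bases in capitals and intronic bases in lower case. The 3′ site covers 20 intronic and 3 exonic bases and the 5′ site 3 exonic and 6 intronic bases. NIN, SEC31A, DEPDC1 and CCDC50 are shown as examples that changed in EMT of both control and knockdown cells, COL6A3 and PLD3 because they changed in MES knockdown, and MICALL2 because it had the smallest p in EPI knockdown.
NIN 3′ site (chr14:51225346-51225368, minus strand): tgtatgttgactatatttagGGA
NIN 5′ site (chr14:51223204-51223212, minus strand): GAGgtaatg
SEC31A 3′ site (chr4:83763632-83763654, minus strand): gtttcttctccttggtgtagCTT
SEC31A 5′ site (chr4:83763287-83763295, minus strand): CAGgtctgc
DEPDC1 3′ site (chr1:68948578-68948600, minus strand): tttgtttcatttcctggtagTTG
DEPDC1 5′ site (chr1:68947723-68947731, minus strand): AAAgtaagg
CCDC50 3′ site (chr3:191092831-191092853, plus strand): atccctctgcctccactcagACC
CCDC50 5′ site (chr3:191093376-191093384, plus strand): CAGgtaata
COL6A3 3′ site (chr2:238287876-238287898, minus strand): ttttctgtgcttcactgcagTTC
COL6A3 5′ site (chr2:238287273-238287281, minus strand): CAGgtaaac
PLD3 3′ site (chr19:40871440-40871462, plus strand): atgtatttatttttgactagGTA
PLD3 5′ site (chr19:40871835-40871843, plus strand): GGGgtaggt
MICALL2 3′ site (chr7:1474781-1474803, minus strand): gccatctggtcccgtttcagGGA
MICALL2 5′ site (chr7:1473840-1473848, minus strand): AAGgtgggc

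All 14 sites carry the usual AG and GT at the intron ends. The 5′ sites scored from 4.31 bits (SEC31A) to 8.5 bits (DEPDC1), and those of DEPDC1 and CCDC50 (8.47 bits) lay above the median of 8.35 bits of all long exons. The 3′ sites scored from 5.46 bits (NIN) to 10.1 bits (COL6A3), and that of COL6A3 lay above the median of 9.66 bits.

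Most long exons were included in nearly all transcripts. In EPI controls 1849 of 2295 events with enough reads (80.6%) had a PSI of at least 95%, 370 (16.1%) lay between 5% and 95%, and 76 (3.31%) were at 5% or less. For mid-length exons the shares were 82.3%, 14.2% and 3.52%, and for microexons 51.9%, 27.2% and 20.9%. In MES controls 19.4% of long exon events lay between 5% and 95%, in EPI knockdown cells 19.2% and in MES knockdown cells 22.5%. The shares of mid-length exons in these groups were 16.7%, 16.8% and 18.9%, and fewer long events had enough reads there (1929, 1916 and 1757).

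The first comparison asked which long exons differ between EPI and MES control cells. Of 1959 long exon events tested, 38 changed, each from another gene, and 24 of them were less included in MES cells, among them exons of the cytolinker plectin (PLEC), the mitotic kinesin KIF23 and the vesicle coat protein SEC31A. The other 14, with those of the centrosome protein ninein (NIN) and the spindle protein ASPM, were more included. ∆PSI is the MES minus the EPI mean in points of PSI, and an event changed where a quasi-binomial test moderated with limma gave an adjusted p under 0.05 over all SE events and ∆PSI was at least 10 points. Over all 49330 SE events tested 1.35% changed, 0.752% with more and 0.6% with less inclusion, and of the long exons 1.94% changed, 0.715% with more and 1.23% with less. At an unadjusted p under 0.05 and 10 points there were 80 long events (4.08%), against 3.09% of all SE events. The groups did not overlap in 213 long events (10.9%) and in 10.8% of all SE events. The exons named below for their ∆PSI were chosen among those whose groups do not overlap, so that non-overlap is no result about them. Among the long exons that changed 36.8% rose, against 56.1% of the changed mid-length exons and 68.8% of the changed microexons. The median ∆PSI without regard to sign was 21.5 points in changed long exons and 0.966 in all long exons tested, and the median signed ∆PSI of all long exons tested was -0.16 points (-0.0601 for all SE events). In bulk cultures a shift in every cell and a different mix of cells cannot be told apart.

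**Figure D1:**
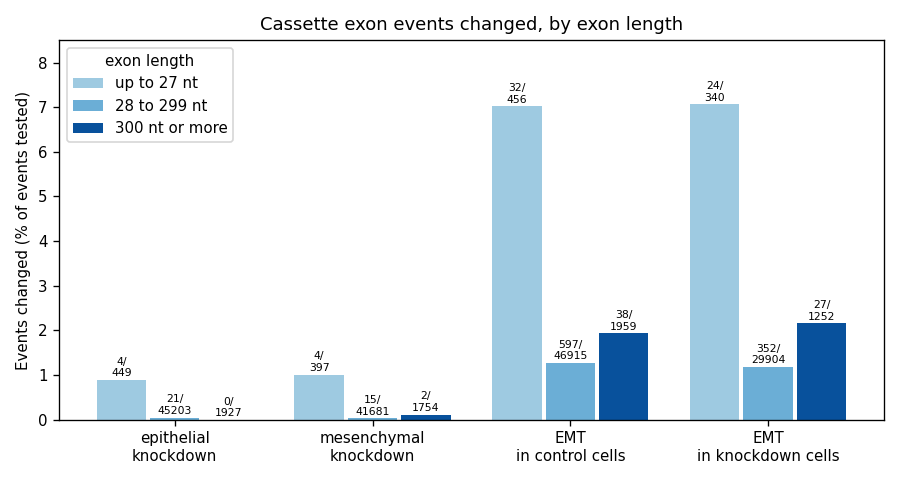
Share of tested SE events that changed (vertical axis, %) in the 4 comparisons of 2 groups (horizontal axis) for microexons, mid-length exons and long exons (bars from light to dark), with the number changed over the number tested above each bar. Long exons reach 1.94% and 2.16% in the EMT comparisons and 0% and 0.114% in the knockdown comparisons, and microexons have the tallest bar in each.

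Exons of NIN, ASPM, KIF23 and DEPDC1, which are genes of the centrosome, the spindle or dividing cells, changed in both directions. The NIN exon of 2139 nt (chr14:51223210-51225348) codes for 713 residues of a protein that anchors microtubules at the centrosome. Its PSI was 22.2%, 26.2% and 30.6% in the EPI controls and 73.4%, 71.7% and 68.8% in the MES controls. The groups lay far apart, with a ∆PSI of 45.0 points (adjusted p = 1.9e-13). The ASPM exon of 4755 nt, the longest that changed, codes for 1585 residues of a spindle pole protein, among them most of its calmodulin-binding repeats. Its PSI was 54.7%, 50.0% and 53.1% in EPI and 84.2%, 78% and 80.5% in MES controls, a rise of 28.3 points (adjusted p = 9.8e-07). Both exons were thus more included in all MES than in all EPI control libraries, as the rule that chose them required.

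In the opposite direction went KIF23 and DEPDC1. KIF23, a motor of the spindle midzone, has a 312 nt exon that distinguishes its longer form, and its PSI was 47.2%, 53.6% and 45.4% in EPI and 20.2%, 22.7% and 33.0% in MES controls (∆PSI -23.4 points, adjusted p = 1.4e-06). The DEPDC1 exon of 852 nt, in a gene expressed in dividing cells, was at 50.2%, 55.2% and 54.7% against 24.7%, 25% and 21.7% (∆PSI -29.6 points, adjusted p = 5.6e-08). No EPI library of either exon reached down to a MES library, which was again part of the rule that chose them. Of 20 long exon events tested in 18 genes of a list for microtubules, centrosome and mitosis, 2 rose (NIN, ASPM) and 1 fell (KIF23), and the list's median ∆PSI was 0.0891 points. DEPDC1 is not on the list. With limma on the logit of PSI the calls of ASPM (adjusted p = 0.062), DEPDC1 (0.072) and KIF23 (0.19) were lost.

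Cytoskeletal linkers fell and rose. Plectin ties intermediate filaments to junctions, and its 3381 nt exon codes for 1127 residues of the rod between its end domains. The exon was at 96.9%, 96.6% and 98.2% in EPI controls, with 1560 reads per library, and at 74.6%, 79.0% and 78.1% in MES controls (∆PSI -20.0 points, adjusted p = 2.4e-27). It was included almost fully in each EPI control and skipped in part in each MES control. The EPB41L1 exon of 411 nt, in a protein that links spectrin and actin to the membrane, rose from 57.8% ± 7.47 to 82.8% ± 1.31 (SD, n = 3 each; adjusted p = 0.001). The SPECC1 exon of 1580 nt, in a coiled-coil protein of the cytoskeleton, rose by 15.4 points (adjusted p = 0.028), and the PALLD exon of 672 nt, in the actin-bundling protein palladin, fell by 12.5 points (adjusted p = 0.0033) in 1 of its 2 events. Of 21 events tested on an actin cytoskeleton list 2 rose and 1 fell, with a median ∆PSI of 0.133 points, and of 4 on a list of plakins, spectrins and ankyrins PLEC fell, with a median of -1.64 points. The call of EPB41L1 was lost without the second EPI control (adjusted p = 0.098), and that of SPECC1 without the first or second EPI or MES control (adjusted p of 0.054 to 0.38). Both were also lost with limma on the logit of PSI (adjusted p = 0.098 and 0.46).

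SEC31A is a coat protein of vesicles that leave the endoplasmic reticulum, and its 342 nt exon was at 65.4%, 67.4% and 69.3% in EPI and 41.3%, 34.0% and 39.6% in MES controls (∆PSI -29.1 points, adjusted p = 2.2e-12). PAM amidates secreted peptides, and its 321 nt exon lies between the coding parts for its 2 enzyme domains. That exon was at 41.2%, 43.7% and 48.7% in EPI and 69.9%, 70.8% and 67.0% in MES controls (∆PSI 24.7 points, adjusted p = 3.8e-13). Neither exon had overlapping groups, by the rule that chose them. CSF1, a growth factor of macrophages, rose in its 546 nt exon from 60.1% ± 7.96 to 85% ± 1.94 (SD, n = 3 each; adjusted p = 0.045), and the call was held with only the third MES control left out (adjusted p of 0.064 to 0.42 without any other library). The surface protein CD99L2 fell in its 1299 nt exon from 26.9% ± 7.02 to 1.56% ± 0.538 (SD, n = 3 each; adjusted p = 4.2e-12). The exon of the butyrophilin BTN2A2 fell by 20.8 points (adjusted p = 0.023), which was lost without the first EPI, the third EPI or the second MES control (adjusted p of 0.097 to 0.28). The exon of the receptor phosphatase PTPRF fell by 11.3 points (adjusted p = 3.2e-07). With limma on the logit of PSI the calls of SEC31A (adjusted p = 0.092), PAM (0.17) and CSF1 (0.083) were lost.

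CCDC50, a ubiquitin-binding effector of EGF receptor signalling, has a 528 nt exon that was at 15.4%, 16.8% and 20.8% in EPI controls. In MES controls it was almost always skipped, at 0.994%, 1.64% and 2.31% (∆PSI -16.0 points, adjusted p = 1.5e-25). Among enzymes of ubiquitin and SUMO pathways the exon of the E3 ligase RFFL fell by 21.7 points (adjusted p = 0.0019). The exon of the F-box protein FBXO38 fell by 18.7 points (adjusted p = 0.029), a call held with only the third MES control left out (adjusted p of 0.055 to 0.25 without any other library). Exons of the cullin CUL5 (22.5 points, adjusted p = 0.0017) and the SUMO protease SENP5 (25.8 points, adjusted p = 0.0011) rose. CUL5 and SENP5 were included in most transcripts in both states, at 71.1% ± 6.29 and 66.1% ± 10.4 in EPI controls and 93.5% ± 6.45 and 92.0% ± 0.982 in MES controls (SD, n = 3 each). The CUL5 call was lost without the second MES control and the SENP5 call without the first EPI control (adjusted p = 0.11 each). The calls of RFFL (adjusted p = 0.056) and FBXO38 (0.16) were lost with limma on the logit of PSI.

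Among mitochondrial proteins, the NDUFV3 exon of 1095 nt, which makes the long form of this complex I subunit, rose from 26.7% ± 1.51 to 42.6% ± 3.65 (SD, n = 3 each; adjusted p = 0.00086). The exon of the ribosomal protein gene MRPL55 fell from 86.6% ± 8.19 to 56.8% ± 2.57 (SD, n = 3 each; adjusted p = 0.00028) and is annotated as 5′ untranslated. Among transcription factors TRERF1, a zinc finger protein, fell in its 309 nt exon from 97.1%, 100% and 97.2% to 62.5%, 53.5% and 63.0%, on 34.3 reads per MES library (∆PSI -38.5 points, adjusted p = 0.00022). The exon of the imprinted zinc finger gene PLAGL1 fell by 21.2 points (adjusted p = 0.011), which was lost without any 1 EPI control or the second MES control (adjusted p of 0.062 to 0.33). The TRERF1 exon was almost fully included in EPI libraries and skipped in part in every MES library. The exon of PREPL, a serine peptidase relative, fell by 24.2 points (adjusted p = 0.00041) and the exon of KIAA1217 fell by 24.9 points from 100% in every EPI library (adjusted p = 1.9e-05, and 0.12 without the first MES control). With limma on the logit of PSI the calls of NDUFV3 (adjusted p = 0.45), PREPL (0.21) and PLAGL1 (0.059) were lost.

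Exons in 5′ untranslated regions changed in RHOC, PLD3, SLC37A4, MRPL55 and PCBP4. The RHOC exon of 1153 nt, ahead of the coding sequence of this small GTPase of cell motility, rose from 24.4% ± 2.08 to 36.8% ± 5.17 (SD, n = 3 each; adjusted p = 2.1e-06). The exon of SLC37A4, the glucose-6-phosphate transporter, fell from 21% ± 2.73 to 3.21% ± 3.62 (SD, n = 3 each; adjusted p = 0.0016). PCBP4, an RNA-binding protein, differed among the MES controls themselves. Its PSI was 8.17%, 8.28% and 8.16% in the EPI controls and 11.9%, 50.9% and 47.4% in the MES controls (∆PSI 28.5 points, adjusted p = 0.007), and the call was lost without either of the high MES libraries or the first EPI library (adjusted p of 0.062 to 0.47) and with limma on the logit of PSI (adjusted p = 0.051). The SH3YL1 exon, which had the largest ∆PSI at -46.6 points (adjusted p = 0.0017), had 16.3 reads per EPI library and EPI values of 92.6%, 33.3% and 90.9%, which overlap none of the MES values of 19.2%, 26.8% and 31.0%.

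**Figure D2:**
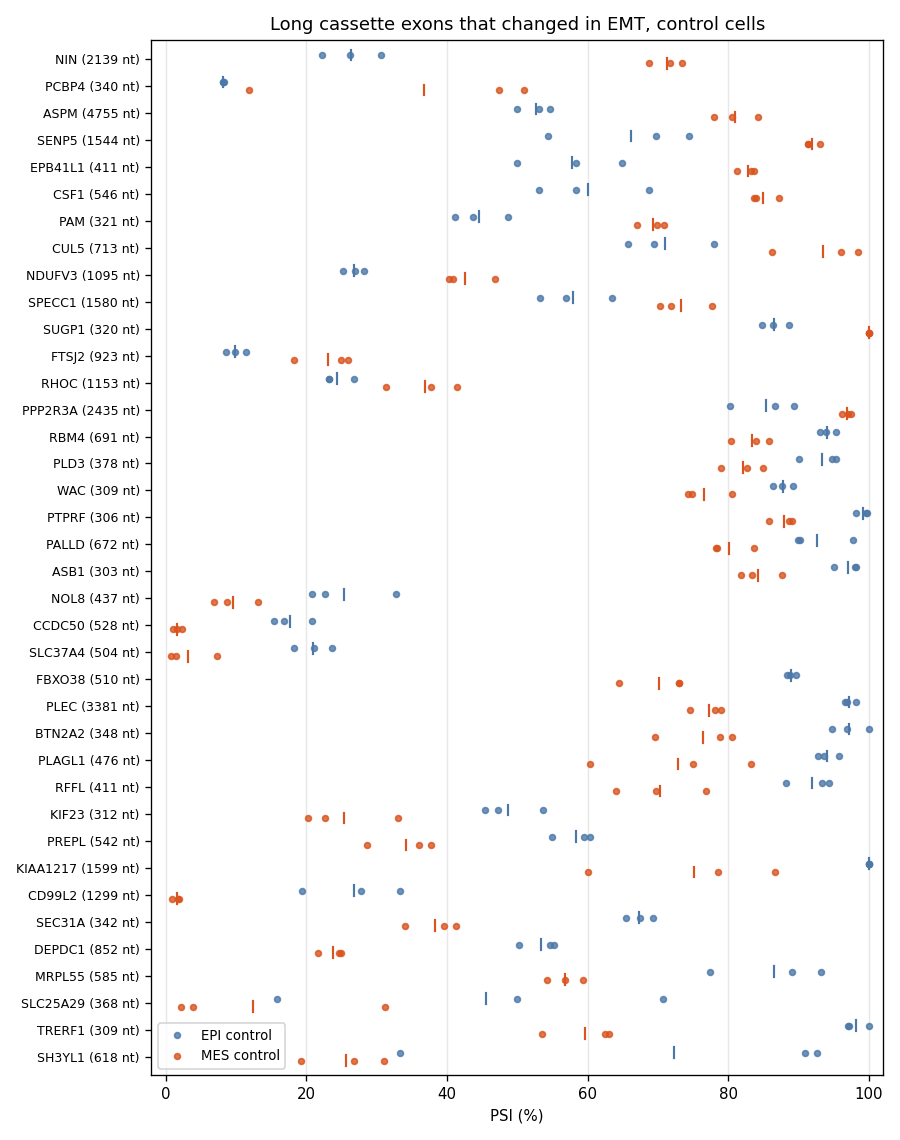
PSI (horizontal axis, %) in each EPI control (blue) and MES control (orange) library for the 38 long exons that changed, with the gene and exon length on the vertical axis, ordered by ∆PSI, and short vertical lines at the means. The 24 exons that fell stand in the lower part and the 14 that rose in the upper part, and SLC25A29 has overlapping groups.

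The coding long exons were also read for their frame, which an exon keeps when its length is a multiple of 3. Of the 38, 21 are wholly coding, and 20 of these 21 (95.2%) have a length that is a multiple of 3, all but SPECC1. Among the 893 wholly coding long exons tested 400 (44.8%) do, and among 180 with a PSI between 5% and 95% in either state that did not change, 89 (49.4%). For mid-length exons the share was 68.4% among those that changed (256 of 374) and 44.2% among those tested. All 14 wholly coding long exons with less inclusion in MES cells, PLEC, SEC31A and CCDC50 among them, keep the frame, as do 6 of 7 with more. These counts describe the exons and were not tested.

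**Figure D3:**
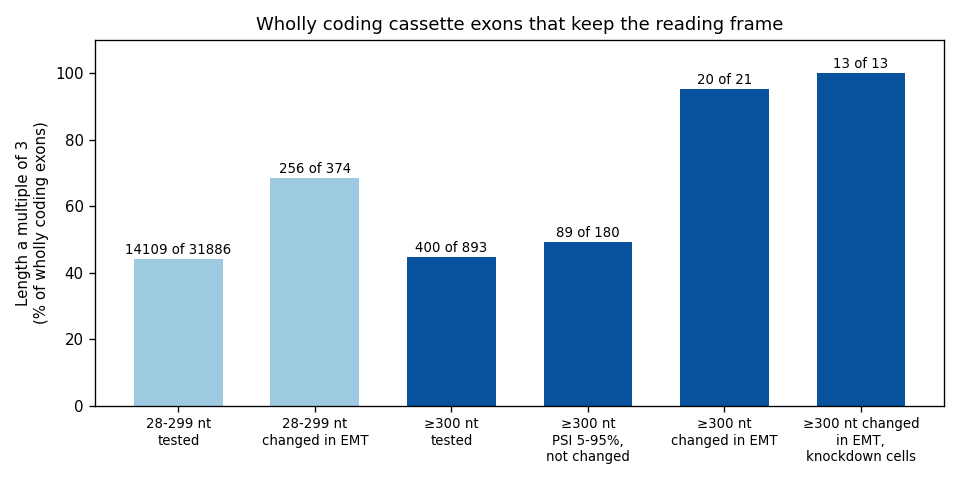
Share of wholly coding exons whose length is a multiple of 3 (vertical axis, %) for mid-length exons (light bars) and long exons (dark bars), with the counts above each bar. The bars stand at 44.2% and 68.4% for mid-length exons tested and changed, at 44.8% and 49.4% for long exons tested and variable but not changed, and at 95.2% and 100% for long exons changed in EMT of control and of knockdown cells.

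The median 5′ splice site of the 38 exons scored 6.8 bits, against 8.35 in all long exons tested in this comparison and 8.36 in variable long exons that did not change. The 3′ splice site scored 11.7 bits in the exons that rose and 8.65 bits in those that fell, with 9.85 in those tested. The median length was 1009 nt in the exons that rose, 490 nt in those that fell and 517 nt in all tested, differences that were not tested. An annotated transcript started inside 36.8% of the 38 exons and ended inside 42.1%, near the 32.6% and 45.0% of those tested. With these set aside, 15 exons that changed were left, 7 with more and 8 with less inclusion.

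A cassette exon can be read against more than 1 pair of neighbouring exons. Of the 38 exons 8 had another tested event, and none of these other events changed. SEC31A had a ∆PSI of -29.1 points in the event given above and of -3.82 points in the other, on 327.3 reads per library (adjusted p = 0.25). For PALLD the other event, with 369.5 reads per library, stood at -2.79 points (adjusted p = 0.89), and for the exon of RBM4, an RNA-binding protein, the event listed under the RBM14-RBM4 readthrough stood at -0.968 points beside -10.7 points. The other events had the same direction in 6 of the 8 exons, and in RFFL and PLAGL1 they lay at 1.42 to 2.16 points beside falls of 21.7 and 21.2 points. In each of these exons 1 of the tested sets of neighbours passed, and the difference between events of an exon was not tested.

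The same transition was read in the knockdown libraries, which share none with the control comparison. Here 27 of 1252 long exon events changed, 5 with more and 22 with less inclusion in MES cells, and 2.16% of long exons changed against 1.28% of all SE events (0.6% more, 0.679% less). At an unadjusted p under 0.05 and 10 points there were 63 (5.03%), against 3.79% of all SE events. With limma on the logit of PSI 1 long exon changed, that of CD99L2, and the count was 14 without the third EPI knockdown library, 11 without the first and 17 without the second MES knockdown library. Of the 38 exons that changed in control cells 35 could be tested. In knockdown cells 34 of these 35 (97.1%) differed in the same direction, 25 of them by at least 10 points, and 15 changed. The share with the same direction was 97.8% for changed mid-length exons and 100% for changed microexons. The exception was PCBP4 (-1.12 points). Across the 35 exons the ∆PSI values had a Pearson r of 0.91 and a Spearman rho of 0.88, which describes exons that were chosen for a large ∆PSI in 1 of the 2 comparisons. Over all 1181 long exon events tested in both, r was 0.55 and rho 0.27. In the median the 35 exons chosen in control cells and tested in knockdown cells moved by 21.2 points in control cells. In knockdown cells they moved by 14.2 points in the same direction. Read the other way, the 27 exons chosen in knockdown cells moved by 22.7 points there and by 17.2 points in control cells, with 26 of 27 in the same direction, so that either set moved less in the comparison that did not choose it.

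**Figure D4:**
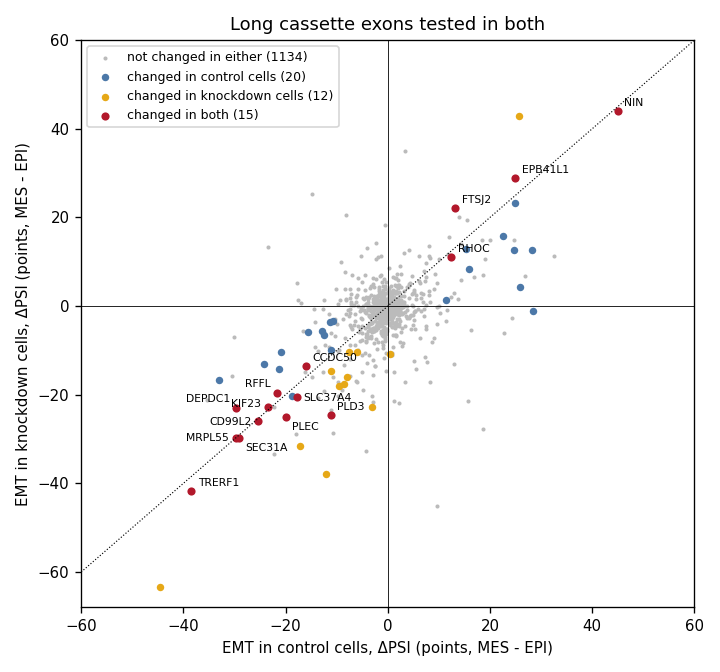
∆PSI (MES minus EPI, points) of 1181 long exon events in control cells (horizontal axis) and in knockdown cells (vertical axis), with events that changed in neither (grey), in control cells (blue), in knockdown cells (yellow) and in both (red, named). The 15 named exons run from TRERF1 at -38.5 and -41.7 points to NIN at 45.0 and 44 points, and PLD3 (-11.2 and -24.6 points) and FTSJ2 (13.2 and 22.2 points) lie farthest from the dotted line of equal values.

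The 15 exons that changed in both comparisons were those of PLEC, CCDC50, CD99L2, SEC31A, PLD3, NIN, EPB41L1, FTSJ2, DEPDC1, MRPL55, SLC37A4, RHOC, KIF23, TRERF1 and RFFL. NIN was at 40.6%, 36.1% and 53.2% in EPI and 90.0% and 84.8% in MES knockdown cells (∆PSI 44 points, adjusted p = 1.9e-06). SEC31A had a ∆PSI of -29.7 points (adjusted p = 2.5e-10), beside -29.1 points in control cells. FTSJ2, a mitochondrial RNA methyltransferase, rose in its 923 nt exon by 22.2 points (adjusted p = 0.00042), beside 13.2 points in control cells. With 1 of the 5 libraries left out the calls of DEPDC1, MRPL55, SLC37A4, RHOC, KIF23, EPB41L1, TRERF1 and RFFL were each lost at least once (adjusted p of 0.052 to 0.97), KIF23 and RFFL for every library but 1.

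The other 12 exons passed in knockdown cells and not in control cells, where 11 of them had the same direction. COL6A3, a chain of collagen VI, rose in a 600 nt exon by 42.9 points (adjusted p = 6e-06), and the 25.6 points in control cells did not pass (adjusted p = 0.25) on 24.7 reads per EPI control library. NASP, a histone chaperone, fell in the 1017 nt exon of its long form from 37.7%, 38.3% and 35.7% to 19.2% and 23.1% (adjusted p = 0.00036), and by 8.01 points in control cells (adjusted p = 0.019), under the limit of 10 points. MKI67, the Ki-67 protein of dividing cells, fell in its 1080 nt exon (∆PSI -18.1 points, adjusted p = 0.0031), beside -9.62 points in control cells (adjusted p = 0.17). KIAA0391, the nuclease of mitochondrial RNase P, was at 83.7% ± 3.26 (SD, n = 3) and 61.0% ± 1.39 (SD, n = 2), a fall of 22.7 points (adjusted p = 0.038) that stood beside -3.1 points in control cells. SNAP47, a SNARE-related protein, had a ∆PSI of -17.6 points (adjusted p = 0.013), ST5, a regulator of Rab GTPases, of -14.6 points (adjusted p = 0.042) and the inositol phosphate kinase IP6K1 of -10.7 points (adjusted p = 0.035). Of all exons that changed in knockdown cells 5 had another tested event, and none of these other events changed. Their direction was the same in 3 exons, SEC31A (-0.899 points) among them. The other events of SNAP47 stood at 2.69 points and those of ST5 at 2.1 and 0 points. BRD9, a chromatin remodelling subunit, had a ∆PSI of -63.3 points on 10.5 reads per MES library with MES values of 46.7% and 5.26% (adjusted p = 0.042). The exon of the ubiquitin ligase TRIM68 had a ∆PSI of -31.5 points (adjusted p = 0.046), that of the F-box protein FBXO44 of -37.9 points (adjusted p = 0.049), and those of BCS1L and FASTK, both of mitochondria, of -10.4 and -10.3 points. In control cells BCS1L stood at -5.97 points (adjusted p = 0.013) and FASTK at -7.64 points (adjusted p = 0.0021), both under the limit of 10 points. There BRD9 was at -44.5, TRIM68 at -17.2, FBXO44 at -12 and ST5 at -11.2 points (adjusted p of 0.11 to 0.5), SNAP47 at -8.51 (0.25) and IP6K1 at 0.535 points (0.94). Of these 12, the calls of NASP, MKI67, KIAA0391, SNAP47, ST5, IP6K1, BRD9, TRIM68 and FBXO44 were each lost with at least 1 library left out (adjusted p of 0.055 to 0.97), those of KIAA0391 and IP6K1 with any of the 5. BCS1L and FASTK were not recomputed. Whether any of these differs between control and knockdown cells is given by the test of the difference itself, which none passed.

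Knockdown in EPI cells asked what AKAP8 does to long exons in the epithelial state. None of 1927 long exon events changed, against 0.0525% of all SE events. At an unadjusted p under 0.05 and 10 points 20 long events (1.04%) stood out, 11 with more and 9 with less inclusion, against 0.706% of all SE events, and limma on the logit of PSI called none. The groups did not overlap in 109 long events (5.66%) and in 5.66% of all SE events. The median ∆PSI without regard to sign was 0.788 points for long exons and 0.58 for all SE events. Among long exons with a ∆PSI of at least 10 points, the 5 with the smallest unadjusted p were those of MICALL2, NOL8, DEPDC1, NIN and FUT10, none of which passed.

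The MICALL2 exon of 938 nt (chr7:1473846-1474783), in a gene for a Rab13 effector that carries junction proteins to the cell surface, came closest. It lies in transcripts annotated without a coding sequence. Its PSI was 63.0%, 88.2% and 61.2% in EPI controls and 100%, 100% and 96.2% in EPI knockdown cells (∆PSI 27.9 points, adjusted p = 0.064), on 58.0 and 48.0 reads per library. In MES cells the controls of the knockdown table were at 71.4% and 58.7% and the knockdown libraries at 88.9% and 86.7% (∆PSI 22.7 points, adjusted p = 0.81). The knockdown libraries were above these controls in both states, and the third MES control, which was not in the comparison, was at 84.6%. With the trend on all junction reads the EPI difference passed (adjusted p = 0.043), as did that of DEPDC1 (adjusted p = 0.032).

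Like MICALL2, the exons of DEPDC1, NIN and FUT10 had values in knockdown cells on the same side of control in both states. For DEPDC1 the EPI knockdown libraries were at 37.6%, 36.0% and 38.2%, all below the EPI controls (∆PSI -16.2 points, adjusted p = 0.56), and the MES knockdown libraries at 13.5% and 14.8%, below all MES controls (∆PSI -10.7 points, adjusted p = 0.81). For NIN the EPI knockdown libraries were above all EPI controls (∆PSI 17 points, adjusted p = 0.57), and the MES knockdown libraries above all MES controls (∆PSI 14.8 points, adjusted p = 0.81). With the 2 controls of the MES knockdown comparison, the groups did not overlap in 398 long events (22.7%) and in 21.4% of all SE events. The exons of DEPDC1 and NIN also fell and rose in EMT, and that of NOL8 fell there by 15.7 points (∆PSI -15.7, adjusted p = 0.0035). The comparisons share control libraries. In EPI cells NOL8, a nucleolar protein, was at 25.4% ± 6.39 and 14.4% ± 7.33 (SD, n = 3 each; adjusted p = 0.43), and FUT10, a fucosyltransferase, at 89.2% ± 3.25 and 100% in all 3 knockdown libraries (adjusted p = 0.76). In MES cells FUT10 was at 93.1%, 91.1% and 94.5% in the controls and at 100% in both knockdown libraries (∆PSI 7.91 points with the 2 controls of the comparison, adjusted p = 0.81). Neither passed.

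Knockdown in MES cells changed 2 of 1754 long exon events (0.114%), against 0.0479% of all SE events (0.0114% more, 0.0365% less), and 26 (1.48%) against 0.942% stood at an unadjusted p under 0.05 and 10 points. COL6A3 encodes a chain of collagen VI, a microfibril of the matrix, and its 600 nt exon (chr2:238287279-238287878) codes for 200 residues in the array of von Willebrand factor A domains. PSI was 51.0% and 46.6% in the 2 controls and 75.8% and 80.7% in the knockdown libraries, and the third MES control, which was not in the comparison, had 50.4%. The rise was 29.4 points (adjusted p = 2.5e-09) on 1010 reads per knockdown library. It was lost with the second control left out (adjusted p = 0.33) and with limma on the logit of PSI, which called 2 other long exons. In EPI cells COL6A3 was read too little for a firm value, with 24.7 reads per control and 35.7 per knockdown library and values of 63.6%, 20.5% and 21.7% after knockdown.

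The PLD3 exon of 378 nt (chr19:40871460-40871837) is annotated as 5′ untranslated, in the gene of a lysosomal nuclease of the phospholipase D family. It was at 82.6% and 84.9% in the MES controls and at 67.0% and 64.1% in the knockdown libraries, while the third MES control had 79.0%. The fall was 18.2 points (∆PSI -18.2, adjusted p = 0.01). The call was lost with limma on the logit of PSI (adjusted p = 0.94) and when any of the 4 libraries was left out, which leaves 1 library in a group. In EPI cells the values were 95.3%, 94.7% and 90.1% in controls and 92.9%, 90.3% and 87.2% after knockdown (∆PSI -3.25 points, adjusted p = 0.76). The mean of PLD3 was thus highest in EPI controls and lowest in MES knockdown cells.

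The 5 long exons that followed by unadjusted p among those with a ∆PSI of at least 10 points did not pass, and for USP19 and PUS3 the third MES control lay with the knockdown libraries. For USP19, a deubiquitinase, the controls were at 87.0% and 81.2%, the knockdown libraries at 98.4% and 100% and the third control at 98.0% (adjusted p = 0.46). For PUS3, a pseudouridine synthase, they were at 74.2% and 77.0%, 94.6% and 100%, and 94.5% (adjusted p = 0.81). For PCBP4 the controls were at 11.9% and 50.9% and the knockdown libraries at 11.6% and 7.11%. The complement inhibitor SERPING1 was at 100% in both controls and at 87.5% and 85.2% after knockdown (adjusted p = 0.81), and KIAA0391 was at 74.8% and 88.0% and at 60% and 62% (adjusted p = 0.81).

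**Figure D5:**
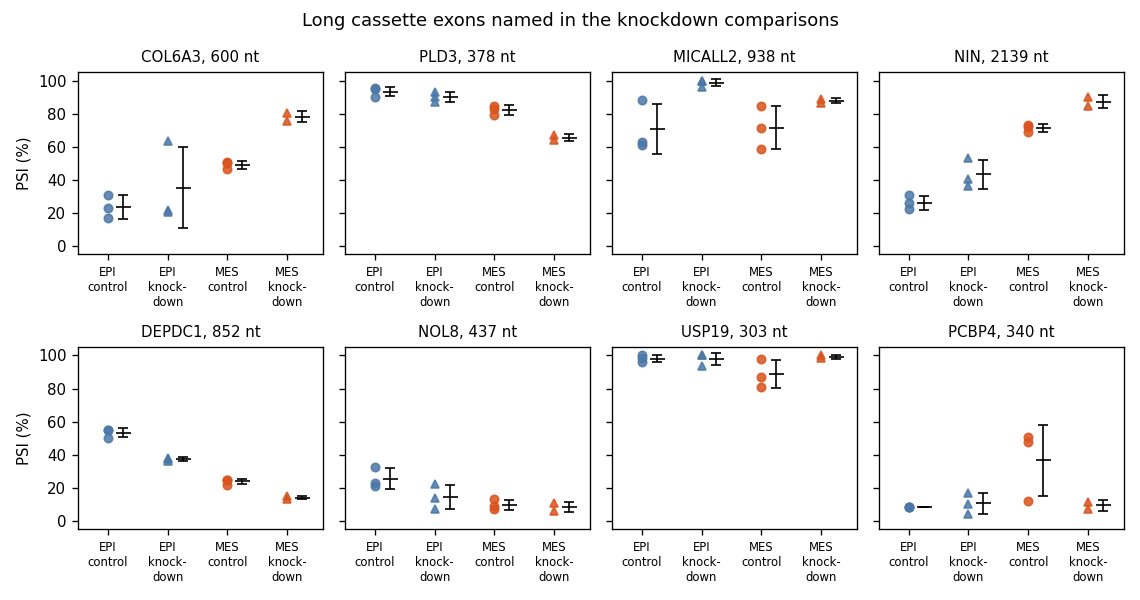
PSI (vertical axis, %) of 8 long exons in each library of EPI control, EPI knockdown, MES control and MES knockdown cells, with mean and SD beside the points; all 3 MES controls are drawn, of which the first 2 were in the knockdown comparison. COL6A3 stands highest in MES knockdown cells (75.8% and 80.7%), and the third MES control of USP19 (98.0%) lies with the knockdown libraries.

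Long exons at an unadjusted p under 0.05 and 10 points in EPI knockdown were read in MES knockdown, which shares no library with it. Of 20 such events 19 were tested there, 11 (57.9%) differed in the same direction, and none changed. Of the 26 from MES knockdown 19 were tested in EPI cells, 12 (63.2%) had the same direction, and none changed. Over 1202 long exon events tested in both, the ∆PSI values had a Pearson r of 0.11 and a Spearman rho of 0.04.

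Whether knockdown acted differently in the 2 states was tested with all 11 libraries. None of 1197 long exon events passed, against 0.00993% of 30197 SE events, and limma on the logit of PSI called none. At an unadjusted p under 0.05 there were 69 long exon events (5.76%), against 5.27% of all SE events. The smallest p came from both long exons of RTN3 (2331 and 2052 nt), a reticulon of the endoplasmic reticulum, which overlap, share a 5′ splice site and so share reads. The 2331 nt exon was rarely included, at 0.382% ± 0.388 and 1.77% ± 0.403 in EPI control and knockdown cells (SD, n = 3 each) and 3.0% ± 0.168 and 1.38% ± 0.745 in MES cells (SD, n = 3 and n = 2), with an adjusted p of 0.31. Larger differences came from PAM, with 5.64 points in EPI and -7.49 points in MES knockdown (adjusted p = 0.81), from IP6K1 with 3.31 and -9.22 points and from GLYCTK, a glycerate kinase, with 29.4 and -13.2 points on 20.7 to 45.0 reads per library. These MES values rest on the 2 controls of the MES knockdown comparison. With all 11 libraries the MES minus the EPI effect was -12.0 points for PAM, -11.2 for IP6K1 and -46.4 for GLYCTK. For RPAP2, C6orf106, TIPARP, MAGED2 and NPAT, the other exons among the 10 smallest p, both effects were under 5 points.

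Other lists of genes were read in EMT of control cells, where 1.94% of all long exons tested changed. On lists for cell junctions and polarity (12 events tested), splicing and RNA processing (25), DNA repair and replication (17), chromatin and transcription (20) and small RNA hosts (5), none changed, and neither did any of 37 events of zinc finger (ZNF) genes. Medians of their ∆PSI lay between -2.35 points, for the small RNA hosts, and -0.00154 points, for the splicing genes. On the list for membrane traffic SEC31A fell, of 18 events. At that share fewer than 1 changed event would fall on any of these lists, so that the counts say nothing particular about them. Of 8 extracellular matrix events none changed in control cells, and COL6A3 rose in knockdown cells and in MES knockdown. No long exon, on a list or not, changed in EPI knockdown.

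AKAP8 binding was read from eCLIP, in which RNA crosslinked to the protein is sequenced beside a size-matched input. The 2 replicates of each state were merged by the authors, so that peaks have no replicate error. Peaks with a log2 of IP over input of at least 2 and a -log10 p of at least 3 numbered 21665 in EPI and 26228 in MES cells. A peak counts as inside an exon, or held by it, where any part of the peak overlaps the exon. Such a peak lay in 16 long exons (0.674%) in EPI and 12 (0.505%) in MES cells, against 0.0401% and 0.0301% of mid-length exons. Peaks of ASS1 and TUBGCP6 cross an end of the exon. Per Mb of exon this was 22.3 and 18.5 peaks in long exons and 3.97 and 4.3 in mid-length ones. These densities count a peak again for each overlapping exon that holds it, and some peaks overlap each other. Among long exons WDR6 gave the most of these counts in both states. Within 1000 nt of the exon or inside it, 4.21% and 2.74% of long exons had a peak, against 2.53% and 1.53% of mid-length ones. The 21 exons with a peak inside in either state came from 18 genes, and 8 of them lie in transcripts without a coding sequence. Their median GC content was 63.0%, beside 52.1% for all long exons, and the part of GC content or of RNA abundance in these counts was not tested.

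Among them were exons of SNRNP70, a protein of the U1 snRNP, of PXN, the adhesion protein paxillin, of BSG, the surface protein basigin, and of WDR6. The SNRNP70 exon (1474 nt) held peaks in EPI (log2 up to 4.35) and MES cells (log2 up to 3.16). PXN (844 nt) held a peak of log2 4.24 in EPI and 3.16 in MES cells. Of 18 exons with a peak that were tested in any of the comparisons of 2 groups, none changed. Of all long exons tested at most 2.16% changed in any of these comparisons, so that a count of none among 18 is near the background. The MICALL2 exon held an EPI peak of 23 nt (chr7:1474366-1474388) with a log2 of IP over input of 4.91 and a -log10 p of 9.66, and it had 8 peaks in EPI and 12 in MES cells inside it or within 1000 nt. None of the 38 exons that changed in EMT held a peak in either state, beside 0.796% in EPI and 0.674% in MES cells of the long exons tested. Of the 38, RHOC (2.63%) had peaks within 1000 nt, 5 in EPI cells and none in MES cells, beside 4.84% and 3.0% of the long exons tested.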

How the data were processed

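Junction read counts and eCLIP peaks were taken from the authors' deposited files. The authors aligned reads with STAR to GRCh37 (Gencode) and counted inclusion and skipping junction reads of annotated SE events per library with rMATS; the deposited tables list the libraries of a group in 1 field without replicate numbers. The p-value, FDR and PSI columns that the authors made with rMATS, and their gene table made with featureCounts and DESeq2, hold their own results and were not used. The deposited eCLIP lists hold for each peak the -log10 p and a log2 ratio of IP to input, merged by the authors over replicates.

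Control reads were identical in 44899 of 44899 EPI and 41773 of 41773 MES events found in 2 tables, so that comparisons with the same controls share their libraries. PSI was computed from reads divided by effective lengths of 198 nt (inclusion, 2 junctions) and 99 nt (skipping), as the files give them for every long exon. Testing needed a mean of 20 junction reads per library, which 2577 of the 3091 long events had in 1 or more comparisons, and was run on the full SE tables. The test was a quasi-binomial likelihood-ratio F test with dispersions moderated by squeezeVar of limma 3.58.1 (robust trend on the reads of the rarer form), Benjamini-Hochberg over all SE events. It was also run on simulated data, and the share of changes it recovered there is not given here. An exon that did not pass is therefore not shown to be unchanged. AKAP8 was compared with an exact permutation test (scipy). Exons were placed on Gencode 44 lifted to GRCh37; the genome gave the splice sites. Exons were named by a fixed rule: those that passed, up to the 25 largest ∆PSI with groups apart and those on gene lists, or else the 5 smallest p with a ∆PSI of at least 10 points. PALLD, PTPRF, RBM4, BCS1L, FASTK, SLC25A29 and the genes named for a peak alone fall outside it and were chosen after their values were seen, as were the frame counts and the counts of other events. The members and lists were chosen with earlier results of these data known. Alternatives were the trend, limma on the logit of PSI, read minimums of 10 and 1, no length correction, a ∆PSI of 0.05, the third MES control, peak limits, and leaving out each library. Depth was 31258177 to 40852217 SE junction reads per library, and a read on several events counts in each.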

Additional observations from a re-analysis of the deposited data

How the results depend on the processing

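No paired analysis was possible because the tables list the libraries of a group without replicate numbers. In EPI knockdown 0 long exons changed, 2 did with the trend on all junction reads, and 0 to 1 with 1 library left out. In MES knockdown 2 changed, 0 to 1 with 1 library left out, and 1 among exons without an annotated transcript start or end inside, an alternative chosen after seeing the data. In EMT of control cells 38 changed, 25 to 42 with 1 library left out (25 without the second MES control), 25 with limma on the logit of PSI and 15 among exons without a start or end inside. In EMT of knockdown cells 27 changed, 11 to 24 with 1 library left out, 1 with limma on the logit of PSI and 13 among exons without a start or end inside. There the count was 14 without the third EPI knockdown library, 11 without the first and 17 without the second MES knockdown library, and the lone MES library left was assumed to vary like the other group. The test of the difference between states called 0 in every alternative. AKAP8 stayed under control in each alternative, at 40.2% to 48.8% in EPI and 32.6% to 47.9% in MES cells. None of the exons recomputed reversed its direction. PALLD, PTPRF, RBM4, SLC25A29, BCS1L and FASTK were not recomputed, nor were RHOC, PLD3, FTSJ2 and NOL8 in EMT of control cells. Of 361 values of exons named in EMT of control cells 44 lost their call, and of 323 in EMT of knockdown cells 80. Among exons that changed, BRD9, COL6A3, FBXO44, KIAA1217, SH3YL1, SLC25A29, SLC37A4 and TRERF1 had under 40 reads per library in a group of the comparison they changed in.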
